A study of Mus musculus with 15 samples.

Results

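The genes described here are 46 mouse genes of mitosis and the G2/M transition, chosen by name and found as 46 of the 54456 gene rows of the count table. They were followed in organoids from the mammary gland of WT mice, labelled as mammary epithelial cells, which were set near beads that had been soaked in FGF10 or in BSA (bovine serum albumin). FGF10 is a fibroblast growth factor made by stroma that acts on epithelium, and BSA is the inert protein of the control beads. The study's question concerned epithelial-mesenchymal transition (EMT) in mammary epithelium that moves collectively. Its 15 libraries formed 5 groups of 3: 0 h, BSA 36 h, FGF10 36 h, BSA 72 h and FGF10 72 h. The 0 h libraries carry no bead label. All groups shared DMEM/F12 medium with L-Ala-Gln, ITS and P/S. The titles of the FGF10 72 h libraries read FGF0, and their treatment label, FGF10, was followed. No label says whether the libraries of a group came from separate animals or cultures, so p-values measure only the spread between these libraries, which may be technical. The BSA 72 h libraries are numbered 2_1, 2_2 and 3, and the first pair may come from 1 culture, which would leave 2 independent samples in that group.

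Levels are CPM, counts scaled to the same normalized library size. Depth ran from 11965322 to 24261233 counts per library, and the 46 genes took 4176 to 65941 of them. Epithelial markers were present throughout, with Epcam at 1479 to 3919 CPM and Krt8 at 2266 to 5884 CPM. Markers of immune, endothelial, adipocyte and fibroblast cells also had counts in at least 1 library of each group, apart from Lep, which was at 0 in the FGF10 36 h libraries. Some were close to 0, such as Adipoq at 0.0653, 0 and 0 CPM in FGF10 36 h. Transcripts of the mitochondrial genome made up 2.02% to 4.55% of counts in 14 libraries and 1.11% in FGF10 36 h replicate 4. In such bulk samples a larger share of dividing cells and more mitotic RNA per cell cannot be told apart.

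Cells enter mitosis when cyclin-dependent kinase Cdk1, bound to cyclin A or B, is switched on by Cdc25 phosphatases and by Polo and Aurora kinases. Kinetochores then attach chromosomes to the spindle, the spindle checkpoint holds anaphase back until all are attached, and the anaphase-promoting complex with Cdc20 marks cyclin B and securin for destruction. The transcripts of most of these proteins are low in resting and G1 cells and rise together in G2, so they serve as a readout of cycling cells. In the mammary gland, the epithelium of growing buds and ducts is known for active division in puberty and pregnancy.

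Many G2/M genes are known to share promoter elements, the CHR element (core TTTGAA) and CCAAT boxes. The promoters of 6 genes are shown, since 5 of them (Ccnb1, Ccnb2, Cdk1, Plk1 and Cdc20) are mitotic regulators that varied widely between groups and Bub3 varied little. Each stretch runs from 170 bases before to 30 bases after the start site, 5′ to 3′ on the gene's strand, from RefSeq on GRCm38.p6. TTTGAA and CCAAT are in capitals on either strand, so TTCAAA and ATTGG are also in capitals. The positions are Ccnb1 chr13:100786457-100786656 (minus strand), Ccnb2 chr9:70421525-70421724 (minus strand), Cdk1 chr10:69352883-69353082 (minus strand), Plk1 chr7:122159265-122159464 (plus strand), Cdc20 chr4:118437314-118437513 (minus strand) and Bub3 chr7:131560200-131560399 (plus strand).
Ccnb1: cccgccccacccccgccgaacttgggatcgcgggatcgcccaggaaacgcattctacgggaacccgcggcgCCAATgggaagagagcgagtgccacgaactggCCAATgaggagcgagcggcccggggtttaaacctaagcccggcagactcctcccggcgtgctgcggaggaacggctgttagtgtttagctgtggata
Ccnb2: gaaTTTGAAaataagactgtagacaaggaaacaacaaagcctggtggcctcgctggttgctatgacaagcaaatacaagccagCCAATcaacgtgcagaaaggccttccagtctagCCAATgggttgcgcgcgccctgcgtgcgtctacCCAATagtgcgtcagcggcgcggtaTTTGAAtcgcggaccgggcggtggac
Cdk1: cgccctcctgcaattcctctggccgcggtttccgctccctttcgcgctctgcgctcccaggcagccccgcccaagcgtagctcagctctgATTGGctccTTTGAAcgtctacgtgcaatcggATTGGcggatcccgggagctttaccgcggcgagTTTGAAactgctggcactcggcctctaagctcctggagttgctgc
Plk1: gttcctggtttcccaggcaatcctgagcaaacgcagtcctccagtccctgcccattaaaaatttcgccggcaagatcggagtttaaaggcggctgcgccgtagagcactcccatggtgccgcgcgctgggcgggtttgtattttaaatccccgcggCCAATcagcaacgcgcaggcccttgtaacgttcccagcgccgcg
Cdc20: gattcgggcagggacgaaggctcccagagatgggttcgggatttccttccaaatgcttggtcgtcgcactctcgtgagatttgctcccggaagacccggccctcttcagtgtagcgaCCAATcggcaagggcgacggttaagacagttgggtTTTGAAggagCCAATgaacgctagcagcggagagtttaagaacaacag
Bub3: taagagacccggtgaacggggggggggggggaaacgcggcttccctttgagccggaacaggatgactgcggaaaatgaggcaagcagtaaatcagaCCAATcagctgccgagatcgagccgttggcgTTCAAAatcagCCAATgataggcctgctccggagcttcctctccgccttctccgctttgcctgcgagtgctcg

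The Ccnb2 stretch holds 3 CCAAT boxes and 2 TTTGAA matches, and that of Cdk1 holds 2 of each. Ccnb1 has 2 CCAAT boxes and no TTTGAA. The TTTGAA of Plk1 starts 31 bases after its start site, just past the printed end. Bub3 has 2 CCAAT boxes and 1 TTTGAA in its stretch, like Cdc20, and of its 2 listed start sites the upstream one is shown. In windows of 250 bases before to 50 after the start, RefSeq had an entry for 39 of the 46 genes. Those without an entry were Tpx2, Foxm1, Aurkb, Ccna2, Incenp, Kif20a and Cdc25c. TTTGAA, on either strand, was present in 27 of the 39 genes (69.2%), against 20.2% of the 27025 genes of the promoter table and 15% of the 11818 that were also tested for expression. CCAAT was present in 29 (74.4%), against 41.1% and 42.7%, and both motifs in 23 (59.0%), against 7.97% and 6.24%. Neither motif contains the other. Among 81 other mitosis genes, TTTGAA was found in 49.4%, CCAAT in 63.0% and both in 37.0%, so high shares were not particular to the 46. Among 39 DNA replication genes, TTTGAA was found in 12.8%, CCAAT in 59.0% and both in 7.69%. Bub3, Ect2 and Prc1 have 2 overlapping windows each, and a match in both was counted once, from the nearer start site. Of the 33 TTTGAA matches in windows of the mitosis genes, 26 began within 50 bases of the start site. Of the 68 CCAAT matches, 46 began in the 100 bases before it. These matches describe letters only.

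One library stood apart before any comparison was made. In 0 h replicate 1 the mitosis genes stood at a median of 14.1-fold the mean of 0 h replicates 2 and 4. The fold ran from 0.897 for Pttg1 to 29.2 for Cdc25c, and 43 of the 46 genes were over 5-fold, against 2.13% of all tested genes. For 44 of the 46, replicate 1 was above every BSA 72 h library, and for 16 it was above every BSA 36 h library. In that library the summed level of DNA replication genes was 3.28-fold and of fibroblast markers 3.46-fold that of the other 0 h libraries, while epithelial markers were at 0.764-fold. Their part in the high mitotic level was not tested. Because of this library, counts of called genes and adjusted p-values are given from all 15 libraries and again from the 14 without 0 h replicate 1. Log2 differences between FGF10 and BSA are those of the fit of 14, and values after ± are standard errors of that fit, or of the fit of 15 where it is named, unless given as SD. The biological coefficient of variation of the 46 genes had a median of 0.646 with 15 libraries and 0.201 with 14. Over all tested genes the median was 0.204 and 0.197.

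**Figure D1:**
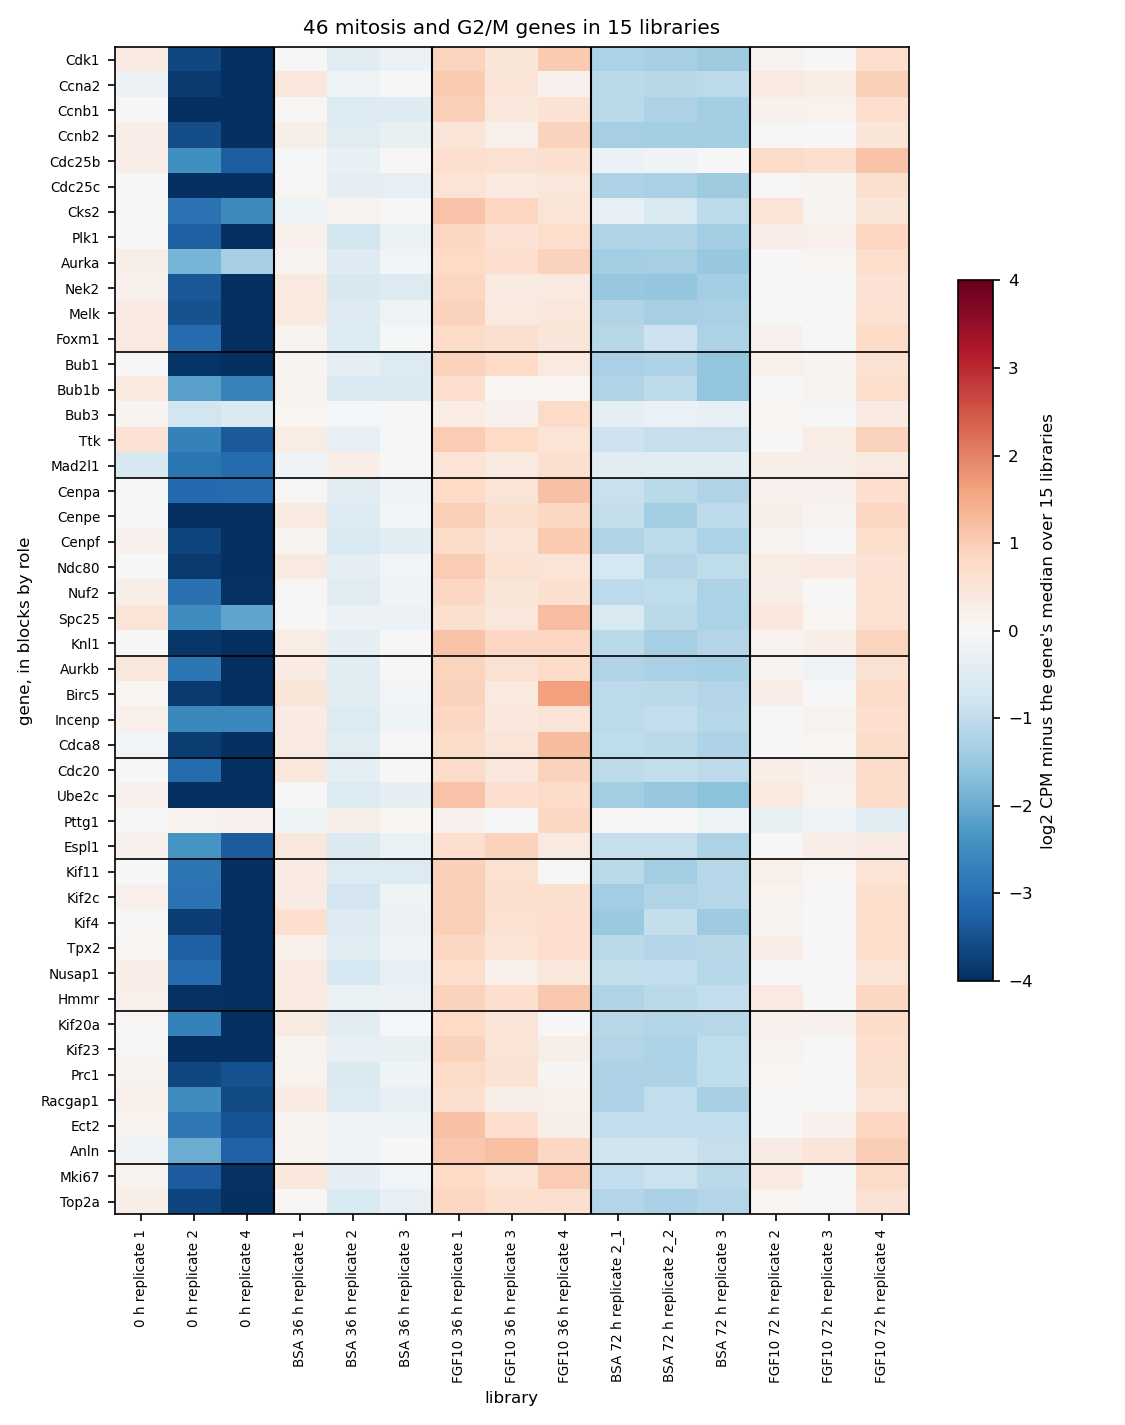
Level of each of the 46 genes (rows, in blocks by role) in each of the 15 libraries (columns), as log2 CPM minus the gene's median over the libraries; red is above and blue below that median. In 0 h replicates 2 and 4 nearly all rows are deep blue, 0 h replicate 1 resembles the later libraries, the 3 FGF10 36 h libraries are red in most rows, and Pttg1 and Bub3 vary least.

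FGF10 beads were compared with BSA beads at each time, groups that differ in what the beads had been soaked in. At 36 h all 46 genes had a higher fitted level with FGF10, with log2 differences from 0.32 (Pttg1) to 1.15 (Ube2c) and a median of 0.77, a 1.71-fold difference. In 33 of the 46 every FGF10 library was above every BSA library. At 72 h the median log2 difference was 1.46, a 2.76-fold difference, and the range ran from -0.24 (Pttg1) to 1.96 (Ube2c). There, 45 of the 46 had every FGF10 library above every BSA library, and Pttg1 had every one below, as had 21.7% of all tested genes with 15 libraries and 21.5% with 14. Over all tested genes the median log2 difference was 0.000166 at 36 h and -0.00811 at 72 h with 14 libraries. The share of tested genes with every FGF10 library above every BSA library was 9.88% at 36 h and 21.9% at 72 h with 15 libraries, and 9.75% and 21.5% with 14. The share of mitochondrial transcripts did not overlap between these groups at 72 h, with 2.21% to 2.6% of counts with BSA and 3.9% to 4.55% with FGF10, and it overlapped at 36 h (2.02% to 3.43% and 1.11% to 3.97%). Its part in the mitotic differences was not tested.

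Whether these differences passed the test depended on 0 h replicate 1, which takes no part in the comparison but enters the shared estimate of spread. The test was edgeR's quasi-likelihood F test with Benjamini-Hochberg adjustment over all tested genes. With 15 libraries 0 of 46 rose at 36 h (0.954% of all tested genes were called higher), and 1 had an unadjusted p under 0.05 (background 18.7%). On the same libraries limma voom with sample weights called 9 and DESeq2's Wald test 0. At 72 h 1 of 46 rose, Aurka (3.01% of all tested genes were called higher), where voom with sample weights called 45 and DESeq2's Wald test 2. Backgrounds here and below are those of edgeR fits, and the voom and DESeq2 counts have none beside them. With 14 libraries 19 of 46 rose at 36 h (background 2.28%) and 44 of 46 at 72 h (background 5.76%). None fell in either fit, while 1.39% and 2.98% of all tested genes were called lower at 36 h and 72 h with 15 libraries, and 2.3% and 4.21% with 14. All 19 genes called at 36 h were also called at 72 h, a comparison of other libraries, though both take their spread from 1 fit. With 44 of 46 called at 72 h, nearly any 19 of the genes would be among them, so this overlap says little. The 2 not called at 72 h were Bub3 (adjusted p = 0.0782) and Pttg1 (adjusted p = 0.453). Because 0 h replicate 1 was left out for its high level of these same genes, p-values with 14 libraries do not allow for that choice. Leaving it out lowered the median biological coefficient of variation from 0.646 to 0.201 for the 46 genes. Over all tested genes it went from 0.204 to 0.197, so the backgrounds with 14 libraries gained less from the choice.

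**Figure D2:**
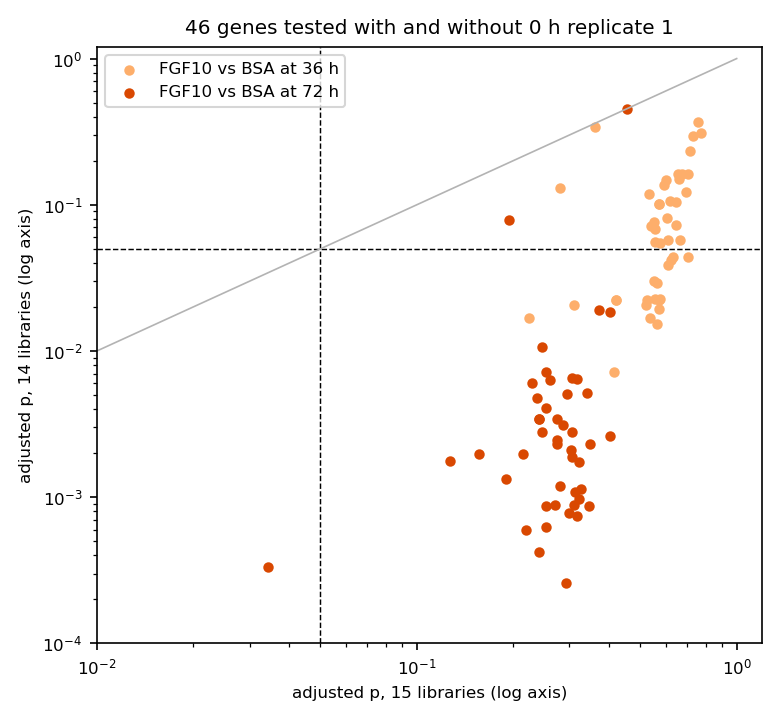
Adjusted p of each of the 46 genes for FGF10 against BSA with 15 libraries (horizontal, log axis) and with 14 libraries without 0 h replicate 1 (vertical, log axis), at 36 h (pale) and 72 h (dark); dashed lines mark 0.05 and the grey line equal values. Only Aurka at 72 h lies left of the vertical line, while 44 points at 72 h and 19 at 36 h lie below the horizontal line.

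The 36 h count rested on few libraries. Without 0 h replicate 1 and without 1 more library it ran from 1 of 46 (BSA 36 h replicate 3 left out) to 34 (BSA 36 h replicate 1 left out). Leaving out BSA 36 h replicate 2 gave 3, and leaving out FGF10 36 h replicate 1 gave 4. It was 19 without FGF10 36 h replicate 4, the library with few mitochondrial counts. A fit of only the 2 groups at 36 h called 1 of 46 (background 0.244%). The 72 h count stayed between 41 and 45 in the same leave-one-out fits, and a fit of only the 2 groups at 72 h, which holds no 0 h library, called 45 of 46 (background 15.2%). With BSA 72 h libraries 2_1 and 2_2 summed as 1 sample, 0 of 46 rose at 72 h with 15 libraries and 42 with 14, and at 36 h 0 and 15.

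**Figure D3:**
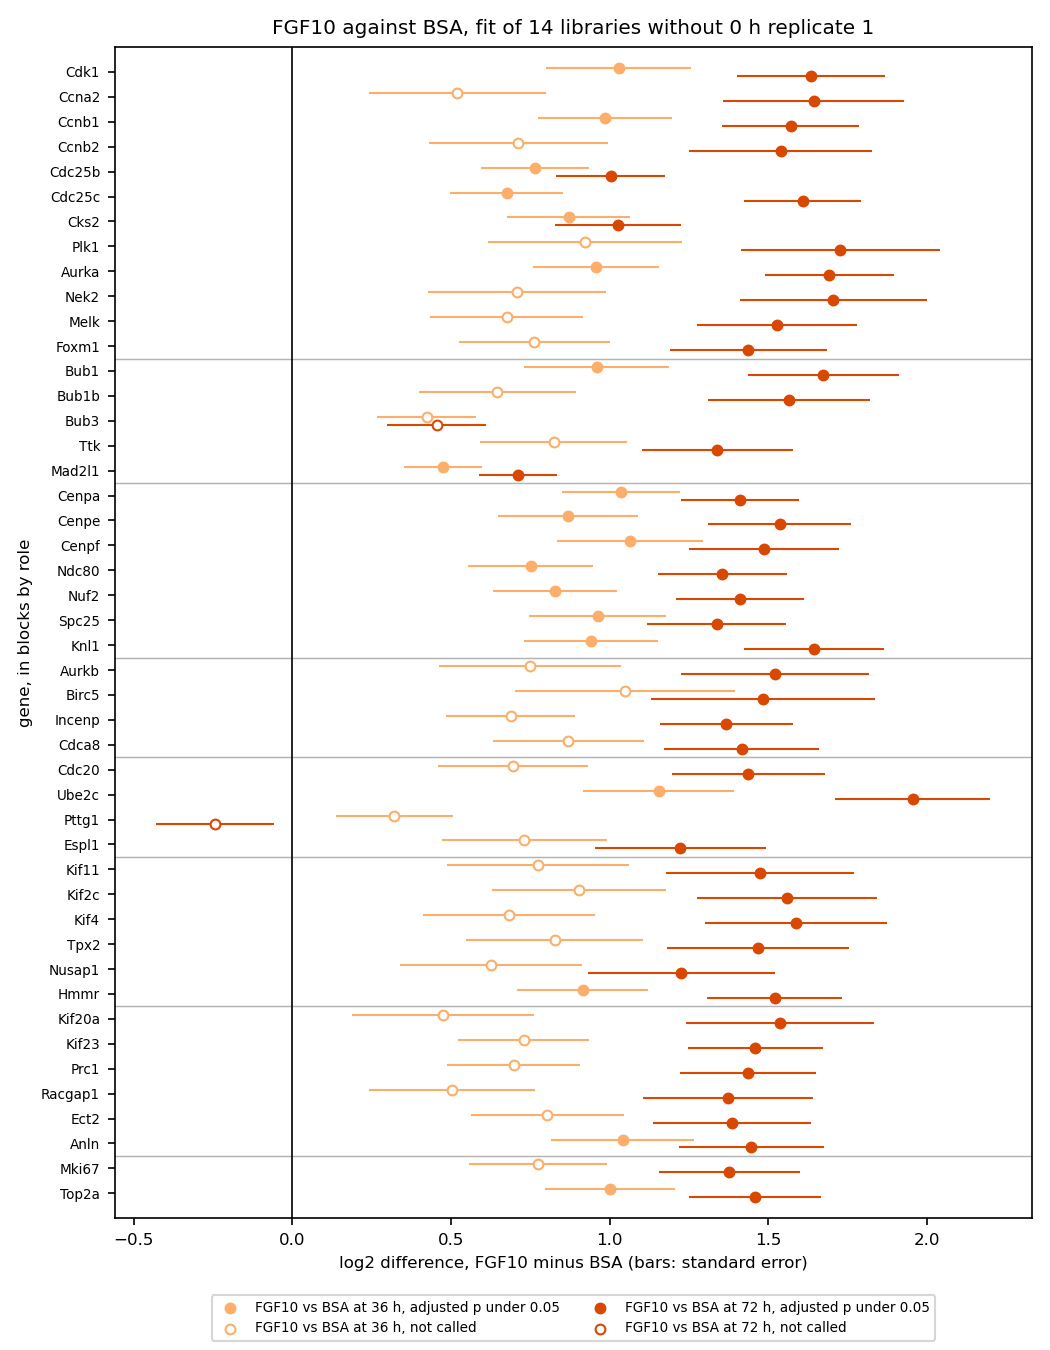
Log2 difference between FGF10 and BSA (horizontal axis, bars show the standard error) for the 46 genes in blocks by role, at 36 h (pale) and 72 h (dark), in the fit of 14 libraries; filled circles have an adjusted p under 0.05. The filled circles number 19 at 36 h and 44 at 72 h, and Pttg1 at 72 h is the only circle left of 0.

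Cyclins, kinases and their activators formed the largest group, with 12 genes. In the fit of 14 libraries 6 of 12 rose at 36 h and 12 of 12 at 72 h, with median log2 differences of 0.76 and 1.59. With 15 libraries these counts were 0 and 1. Cdk1 stood at 185 CPM in 0 h replicate 1 and at 11.4 and 5.67 CPM in replicates 2 and 4. Cdk1 at 36 h was at 146, 105 and 123 CPM with BSA and 264, 203 and 296 CPM with FGF10. Cdk1 at 72 h was at 59.3, 56.9 and 53.98 CPM with BSA and 158, 144 and 227 CPM with FGF10. The FGF10 and BSA libraries of Cdk1, the kinase that drives entry into mitosis, did not overlap at either time. For Cdk1 the log2 difference was 1.03 at 36 h (adjusted p = 0.57 with 15 libraries and 0.0224 with 14; SE 0.90 and 0.23) and 1.63 at 72 h (adjusted p = 0.311 with 15 libraries and 0.000888 with 14; SE 0.91 and 0.23). Ccnb1 stood at 40.8 CPM in 0 h replicate 1 and at 2.03 and 1.05 CPM in replicates 2 and 4. Ccnb1 at 36 h was at 41.99, 27.7 and 28.5 CPM with BSA and 79.04, 55.2 and 60.4 CPM with FGF10. Ccnb1 at 72 h was at 19.2, 17.4 and 15.9 CPM with BSA and 45.7, 44.7 and 65.6 CPM with FGF10. For Ccnb1, the main mitotic cyclin, the groups were again apart at both times, and 0 h replicate 1 lay within the BSA 36 h range. For Ccnb1 the log2 difference was 0.99 at 36 h (adjusted p = 0.573 with 15 libraries and 0.0193 with 14; SE 0.87 and 0.21) and 1.57 at 72 h (adjusted p = 0.316 with 15 libraries and 0.000748 with 14; SE 0.89 and 0.22).

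Ccna2 stood at 68.8 CPM in 0 h replicate 1 and at 5.81 and 2.31 CPM in replicates 2 and 4. Ccna2 at 36 h was at 111, 70.9 and 81.7 CPM with BSA and 169.5, 117 and 92.6 CPM with FGF10. Ccna2 at 72 h was at 38.5, 37.8 and 39.2 CPM with BSA and 105, 99.3 and 157 CPM with FGF10. Ccna2, the cyclin of S phase and G2, had its lowest FGF10 36 h value below the highest BSA one, so the groups overlapped at 36 h and not at 72 h. For Ccna2 the log2 difference was 0.52 at 36 h (adjusted p = 0.773 with 15 libraries and 0.309 with 14; SE 0.83 and 0.28) and 1.64 at 72 h (adjusted p = 0.274 with 15 libraries and 0.0034 with 14; SE 0.85 and 0.29). Plk1 stood at 49.2 CPM in 0 h replicate 1 and at 5.13 and 1.38 CPM in replicates 2 and 4. Plk1 at 36 h was at 56.6, 29.4 and 40.7 CPM with BSA and 86.6, 73.1 and 80.5 CPM with FGF10. Plk1 at 72 h was at 21.4, 21.2 and 19.1 CPM with BSA and 58.96, 56.1 and 88.6 CPM with FGF10. The groups of Plk1, the Polo kinase of mitotic entry and spindle assembly, were apart at both times. For Plk1 the log2 difference was 0.92 at 36 h (adjusted p = 0.573 with 15 libraries and 0.101 with 14; SE 0.81 and 0.30) and 1.73 at 72 h (adjusted p = 0.238 with 15 libraries and 0.00475 with 14; SE 0.83 and 0.31).

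Aurka stood at 57.7 CPM in 0 h replicate 1 and at 13.5 and 19.7 CPM in replicates 2 and 4. Aurka at 36 h was at 52.8, 34.5 and 45.6 CPM with BSA and 85.1, 78.5 and 94.2 CPM with FGF10. Aurka at 72 h was at 19.1, 19.9 and 17.4 CPM with BSA and 49.3, 52.03 and 80.5 CPM with FGF10. Aurka, the Aurora kinase of centrosomes and spindle poles, was apart at both times, and its 0 h replicate 4 lay within the BSA 72 h range. For Aurka the log2 difference was 0.96 at 36 h (adjusted p = 0.224 with 15 libraries and 0.0168 with 14; SE 0.40 and 0.20) and 1.69 at 72 h (adjusted p = 0.0342 with 15 libraries and 0.000335 with 14; SE 0.42 and 0.20), so that it rose at 72 h in both fits. The 15-library call of Aurka at 72 h was lost without a filter on low counts and when any single library of the 2 groups compared was left out or BSA 72 h libraries 2_1 and 2_2 were summed. Cdc25b stood at 20.7 CPM in 0 h replicate 1 and at 3.19 and 1.76 CPM in replicates 2 and 4. Cdc25b at 36 h was at 16.2, 14.2 and 17.3 CPM with BSA and 27.7, 26.2 and 27.3 CPM with FGF10. Cdc25b at 72 h was at 14.6, 15.8 and 17.03 CPM with BSA and 29.2, 27.5 and 38.2 CPM with FGF10. Cdc25b, a phosphatase that activates Cdk1, had its BSA 72 h libraries within the range of its BSA 36 h libraries, and its FGF10 libraries were above both. For Cdc25b the log2 difference was 0.76 at 36 h (adjusted p = 0.525 with 15 libraries and 0.0224 with 14; SE 0.60 and 0.17) and 1.00 at 72 h (adjusted p = 0.349 with 15 libraries and 0.00232 with 14; SE 0.60 and 0.17). Foxm1 stood at 13.7 CPM in 0 h replicate 1 and at 1.26 and 0.66 CPM in replicates 2 and 4. Foxm1 at 36 h was at 11.8, 7.34 and 10.3 CPM with BSA and 18.2, 16.9 and 14.9 CPM with FGF10. Foxm1 at 72 h was at 4.93, 6.01 and 4.50 CPM with BSA and 12.1, 10.7 and 18.8 CPM with FGF10. Foxm1, a transcription factor for G2/M genes, was apart at both times at a low level. For Foxm1 the log2 difference was 0.76 at 36 h (adjusted p = 0.605 with 15 libraries and 0.0811 with 14; SE 0.73 and 0.24) and 1.44 at 72 h (adjusted p = 0.275 with 15 libraries and 0.00248 with 14; SE 0.75 and 0.25). Of the other members, Nek2, a centrosome kinase, had 1.71 ± 0.29 at 72 h (adjusted p = 0.00279 with 14 libraries and 0.246 with 15). With 14 libraries Ccnb2, Cdc25c, Cks2 and Melk rose at 72 h as well, and of the 12 genes the 6 that rose at 36 h were Cdk1, Ccnb1, Cdc25b, Cdc25c, Cks2 and Aurka.

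**Figure D4:**
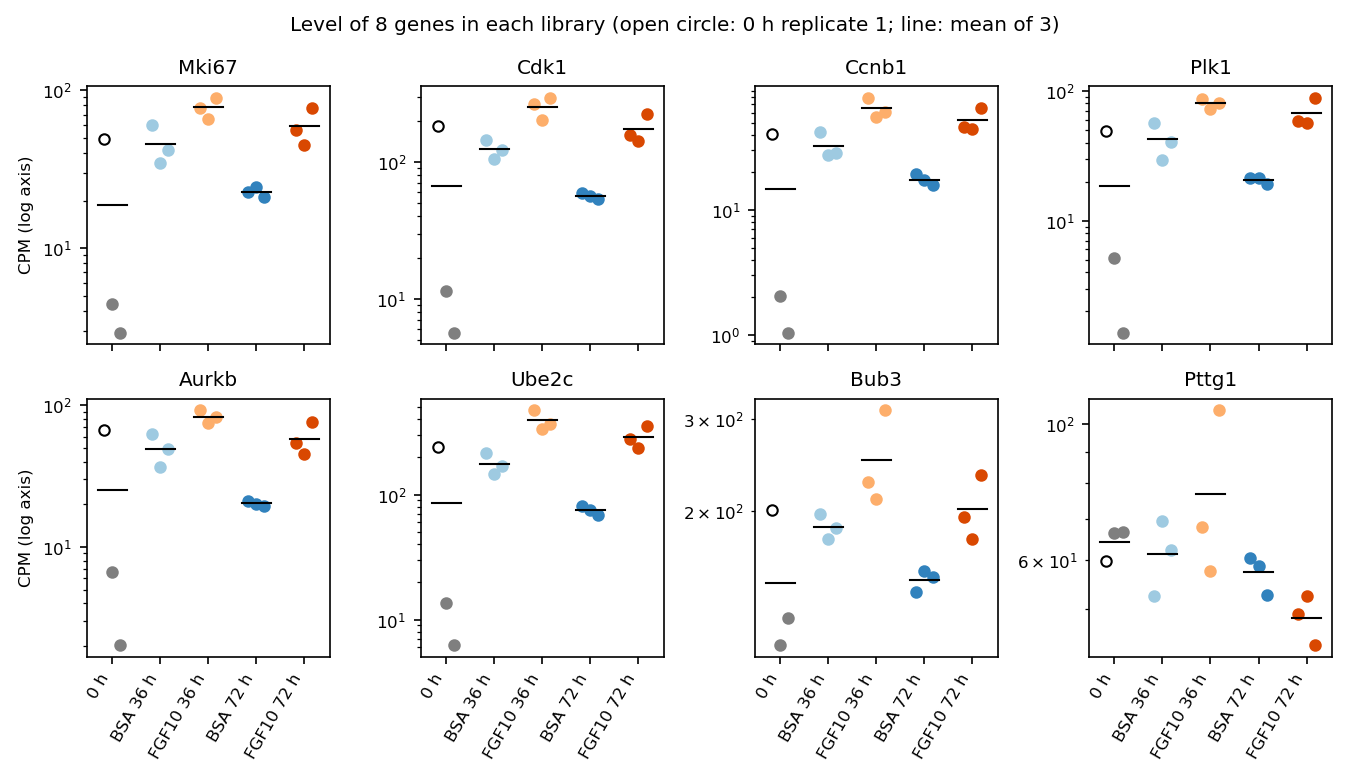
Level of 8 of the genes in each library (vertical, CPM on a log axis) by group, with horizontal lines at the mean of 3 libraries and 0 h replicate 1 as an open circle. For Mki67, Cdk1, Ccnb1, Plk1, Aurkb and Ube2c the FGF10 72 h points lie above all BSA 72 h points and 0 h replicates 2 and 4 lie lowest. Bub3 shares both features over a narrow range, whereas Pttg1 has its lowest mean with FGF10 at 72 h.

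The spindle checkpoint genes, whose proteins block anaphase while kinetochores are unattached, numbered 5, of which 2 rose at 36 h (Bub1 and Mad2l1) and 4 at 72 h with 14 libraries, and none at either time with 15. Bub1b stood at 39.1 CPM in 0 h replicate 1 and at 6.58 and 4.68 CPM in replicates 2 and 4. Bub1b at 36 h was at 31.8, 19.3 and 19.4 CPM with BSA and 47.8, 31.5 and 31.1 CPM with FGF10. Bub1b at 72 h was at 12.98, 14.3 and 10.04 CPM with BSA and 29.7, 32.5 and 48.2 CPM with FGF10. The 36 h groups of Bub1b, which codes for the checkpoint kinase-like protein BubR1, overlapped and the 72 h groups did not. For Bub1b the log2 difference was 0.65 at 36 h (adjusted p = 0.601 with 15 libraries and 0.147 with 14; SE 0.61 and 0.25) and 1.57 at 72 h (adjusted p = 0.157 with 15 libraries and 0.00199 with 14; SE 0.63 and 0.26). Bub3 stood at 201 CPM in 0 h replicate 1 and at 111 and 124 CPM in replicates 2 and 4. Bub3 at 36 h was at 197, 177 and 185 CPM with BSA and 227, 211 and 312 CPM with FGF10. Bub3 at 72 h was at 140.0, 153 and 149 CPM with BSA and 195, 176 and 235 CPM with FGF10. Bub3, a subunit that brings Bub1 and BubR1 to kinetochores, held a high level at 0 h in all 3 libraries, and its FGF10 libraries were above the BSA ones at both times. For Bub3 the log2 difference was 0.42 at 36 h (adjusted p = 0.281 with 15 libraries and 0.13 with 14; SE 0.20 and 0.16) and 0.46 at 72 h (adjusted p = 0.194 with 15 libraries and 0.0782 with 14; SE 0.20 and 0.16). Bub1, the kinase partner of Bub3, had 1.67 ± 0.24 at 72 h (adjusted p = 0.00087 with 14 libraries and 0.253 with 15). Ttk, also called Mps1, had 0.82 ± 0.23 at 36 h (adjusted p = 0.0553 with 14 libraries and 0.555 with 15) and rose at 72 h with 14.

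Kinetochore and centromere genes were the group in which 7 of 7 rose at both times with 14 libraries. Their log2 differences ran from 0.75 to 1.06 at 36 h and from 1.34 to 1.65 at 72 h. With 15 libraries none rose at either time, and whether this group differed from the other roles was not tested. Cenpf, a large outer kinetochore protein, had 1.06 ± 0.23 at 36 h (adjusted p = 0.0205 with 14 libraries and 0.52 with 15). Cenpa, the histone H3 variant that marks centromeres, had 1.04 ± 0.18 at 36 h (adjusted p = 0.00723 with 14 libraries and 0.415 with 15). Knl1, a scaffold for Bub1 and Bub3, had 1.65 ± 0.22 at 72 h (adjusted p = 0.000629 with 14 libraries and 0.253 with 15). Cenpe, a kinetochore motor, had 1.54 ± 0.23 at 72 h (adjusted p = 0.00109 with 14 libraries and 0.312 with 15). Ndc80, Nuf2 and Spc25, which build the complex that grips microtubules, rose at both times too with 14.

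The chromosomal passenger complex corrects faulty attachments and later guides cytokinesis. Of its 4 genes none rose at 36 h and 4 rose at 72 h with 14 libraries, and none at either time with 15. Aurkb stood at 66.96 CPM in 0 h replicate 1 and at 6.68 and 2.04 CPM in replicates 2 and 4. Aurkb at 36 h was at 62.4, 36.5 and 49.2 CPM with BSA and 91.9, 75.3 and 81.99 CPM with FGF10. Aurkb at 72 h was at 21.2, 19.98 and 19.6 CPM with BSA and 53.6, 44.9 and 75.7 CPM with FGF10. The 36 h groups of Aurkb, the kinase of the complex, were apart, as were those at 72 h. For Aurkb the log2 difference was 0.75 at 36 h (adjusted p = 0.66 with 15 libraries and 0.151 with 14; SE 0.82 and 0.29) and 1.52 at 72 h (adjusted p = 0.305 with 15 libraries and 0.0065 with 14; SE 0.84 and 0.30). Birc5 stood at 101 CPM in 0 h replicate 1 and at 6.68 and 2.81 CPM in replicates 2 and 4. Birc5 at 36 h was at 134, 70.6 and 88.9 CPM with BSA and 183, 125 and 301 CPM with FGF10. Birc5 at 72 h was at 46.6, 45.1 and 42.03 CPM with BSA and 114, 95.5 and 164 CPM with FGF10. Birc5, which codes for survivin, overlapped at 36 h, where FGF10 replicate 3 fell below BSA replicate 1 and FGF10 replicate 4 was the highest of all 15 libraries. For Birc5 the log2 difference was 1.05 at 36 h (adjusted p = 0.572 with 15 libraries and 0.102 with 14; SE 0.92 and 0.35) and 1.48 at 72 h (adjusted p = 0.371 with 15 libraries and 0.0191 with 14; SE 0.93 and 0.35). Cdca8, a targeting subunit, had 0.87 ± 0.24 at 36 h (adjusted p = 0.0544 with 14 libraries and 0.574 with 15). With Incenp, the scaffold, the log2 differences of the complex ran from 1.37 to 1.52 at 72 h.

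Genes of anaphase promotion and sister separation held both extremes of the list. With 14 libraries 1 of 4 rose at 36 h (Ube2c) and 3 of 4 at 72 h, and with 15 none rose at either time. Ube2c stood at 238 CPM in 0 h replicate 1 and at 13.6 and 6.27 CPM in replicates 2 and 4. Ube2c at 36 h was at 214, 146 and 168 CPM with BSA and 473, 338 and 366 CPM with FGF10. Ube2c at 72 h was at 81.9, 75.4 and 68.2 CPM with BSA and 280.4, 238 and 356 CPM with FGF10. Ube2c, the ubiquitin-conjugating enzyme of the anaphase-promoting complex, had the largest difference of the 46 genes at both times. For Ube2c the log2 difference was 1.15 at 36 h (adjusted p = 0.534 with 15 libraries and 0.0168 with 14; SE 0.93 and 0.24) and 1.96 at 72 h (adjusted p = 0.241 with 15 libraries and 0.000425 with 14; SE 0.95 and 0.24), which is 2.23-fold and 3.88-fold. Cdc20 stood at 108 CPM in 0 h replicate 1 and at 12.7 and 6.66 CPM in replicates 2 and 4. Cdc20 at 36 h was at 144, 82.2 and 106 CPM with BSA and 186, 147 and 207 CPM with FGF10. Cdc20 at 72 h was at 52.3, 54.98 and 52.8 CPM with BSA and 129, 121 and 182 CPM with FGF10. The groups of Cdc20, the activator of that complex, were apart at both times. For Cdc20 the log2 difference was 0.70 at 36 h (adjusted p = 0.647 with 15 libraries and 0.104 with 14; SE 0.73 and 0.24) and 1.44 at 72 h (adjusted p = 0.275 with 15 libraries and 0.00232 with 14; SE 0.75 and 0.24). Pttg1 stood at 59.7 CPM in 0 h replicate 1 and at 66.4 and 66.7 CPM in replicates 2 and 4. Pttg1 at 36 h was at 52.5, 69.5 and 62.4 CPM with BSA and 67.8, 57.5 and 105 CPM with FGF10. Pttg1 at 72 h was at 60.5, 58.7 and 52.7 CPM with BSA and 49.01, 52.5 and 43.6 CPM with FGF10. Pttg1 codes for securin, the inhibitor of separase that is destroyed at anaphase. Its 0 h replicate 1 was below replicates 2 and 4, its 36 h groups overlapped, and its FGF10 libraries were below the BSA ones at 72 h. For Pttg1 the log2 difference was 0.32 at 36 h (adjusted p = 0.362 with 15 libraries and 0.339 with 14; SE 0.18 and 0.18) and -0.24 at 72 h (adjusted p = 0.454 with 15 libraries and 0.453 with 14; SE 0.18 and 0.18). Espl1, which codes for separase itself, had 0.73 ± 0.26 at 36 h (adjusted p = 0.118 with 14 libraries and 0.53 with 15).

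Spindle motors and assembly factors numbered 6, of which 1 rose at 36 h and 6 at 72 h with 14 libraries, and none at either time with 15. The gene that rose at 36 h was Hmmr, with 0.91 ± 0.21 at 36 h (adjusted p = 0.0228 with 14 libraries and 0.576 with 15). Kif11 stood at 26.3 CPM in 0 h replicate 1 and at 3.48 and 1.49 CPM in replicates 2 and 4. Kif11 at 36 h was at 32.8, 17.9 and 18.02 CPM with BSA and 50.9, 39.8 and 27.1 CPM with FGF10. Kif11 at 72 h was at 12.6, 10.1 and 11.9 CPM with BSA and 30.02, 27.6 and 38.4 CPM with FGF10. Kif11, the motor that pushes spindle poles apart, had FGF10 36 h replicate 4 below BSA 36 h replicate 1, and its 72 h groups were apart. For Kif11 the log2 difference was 0.78 at 36 h (adjusted p = 0.592 with 15 libraries and 0.136 with 14; SE 0.71 and 0.29) and 1.47 at 72 h (adjusted p = 0.254 with 15 libraries and 0.00719 with 14; SE 0.73 and 0.30). The largest differences of this group at 72 h were those of a chromosome-bound motor and of a microtubule depolymerase at centromeres. Kif4, the first, had 1.59 ± 0.29 at 72 h (adjusted p = 0.00341 with 14 libraries and 0.241 with 15). Kif2c, the second, had 1.56 ± 0.28 at 72 h (adjusted p = 0.00406 with 14 libraries and 0.253 with 15). Tpx2 and Nusap1, which help to build spindle microtubules, rose at 72 h as well with 14.

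Cytokinesis genes also numbered 6, of which 1 rose at 36 h and 6 at 72 h with 14 libraries, and none at either time with 15. Anln, which codes for anillin, a scaffold of the contractile ring, had 1.04 ± 0.23 at 36 h (adjusted p = 0.0205 with 14 libraries and 0.311 with 15). Kif20a, a motor of the central spindle, had 1.54 ± 0.30 at 72 h (adjusted p = 0.00604 with 14 libraries and 0.23 with 15). Kif23, another such motor, had 1.46 ± 0.21 at 72 h (adjusted p = 0.000974 with 14 libraries and 0.322 with 15). Prc1, Racgap1 and Ect2, which bundle the midzone and position the ring, rose at 72 h with 14, and the role's log2 differences there ran from 1.37 to 1.54.

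The last pair was the chromosome topoisomerase Top2a and the cycling marker Mki67. Mki67 stood at 49.1 CPM in 0 h replicate 1 and at 4.45 and 2.92 CPM in replicates 2 and 4. Mki67 at 36 h was at 59.8, 34.7 and 41.8 CPM with BSA and 77.6, 65.95 and 89.6 CPM with FGF10. Mki67 at 72 h was at 22.8, 24.4 and 21.2 CPM with BSA and 55.9, 44.7 and 76.8 CPM with FGF10. Mki67, which coats mitotic chromosomes and is absent from resting cells, was apart between FGF10 and BSA at both times. For Mki67 the log2 difference was 0.77 at 36 h (adjusted p = 0.611 with 15 libraries and 0.0574 with 14; SE 0.75 and 0.22) and 1.38 at 72 h (adjusted p = 0.305 with 15 libraries and 0.00189 with 14; SE 0.76 and 0.22). Top2a stood at 106 CPM in 0 h replicate 1 and at 6.97 and 3.69 CPM in replicates 2 and 4. Top2a at 36 h was at 91.9, 58.5 and 71.9 CPM with BSA and 158, 147 and 139.6 CPM with FGF10. Top2a at 72 h was at 40.1, 36.6 and 39.5 CPM with BSA and 95.6, 89.7 and 134 CPM with FGF10. Top2a, which untangles sister chromatids, showed the same separation of groups. For Top2a the log2 difference was 1.00 at 36 h (adjusted p = 0.562 with 15 libraries and 0.0152 with 14; SE 0.86 and 0.20) and 1.46 at 72 h (adjusted p = 0.345 with 15 libraries and 0.00087 with 14; SE 0.87 and 0.21).

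The FGF10 effect was larger at 72 h than at 36 h in the fitted values of 45 of the 46 genes, by a median of 0.65 on the log2 scale. The test of this change called 0 of 46 in either fit (0% of all tested genes were called), and neither voom nor DESeq2's Wald test called any. At an unadjusted p under 0.05 it was 1 of 46 with 15 libraries and 19 of 46 with 14, against 5.5% and 6.71% of all tested genes. Ccna2 had the largest change, 1.12 ± 0.40, adjusted p = 0.661 with 14 libraries and 1.12 ± 1.18, adjusted p = 0.954 with 15. Pttg1, the exception in direction, had -0.57 ± 0.26, adjusted p = 0.737 with 14 libraries and -0.57 ± 0.26, adjusted p = 0.891 with 15. With no filter on low counts the fit of 14 libraries called 5.

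Against 0 h, the picture turned on the left-out library. With BSA at 36 h 1 of 46 genes rose with 15 libraries (Mad2l1, background 12.7%) and 45 of 46 with 14 (background 13.9%), the median log2 difference moving from 1.04 to 3.61. With FGF10 at 36 h 11 rose with 15 (background 19.3%) and 45 with 14 (background 18.5%), with medians of 1.9 and 4.33. With BSA at 72 h 0 rose with 15 (background 12.2%, 1 of 46 at an unadjusted p under 0.05 with a background of 36.1%, 1 by DESeq2's Wald test and 38 by voom with sample weights) and 43 with 14 (background 11.8%), with medians of 0.07 and 2.62. With FGF10 at 72 h 3 rose with 15 (Cdc25b, Mad2l1 and Anln, background 13.8%) and 45 with 14 (background 14.3%), with medians of 1.57 and 3.96. These 4 comparisons share the 0 h libraries. Replicate 1 was left out for its high level of these same genes, so larger rises with 14 libraries follow in part from that choice. The p-values with 14 do not allow for it. Cdc25c had the largest excess in replicate 1, 29.2-fold. Cdc25c, a Cdk1-activating phosphatase, had the largest rise of the 46 from 0 h to BSA 36 h in the fit of 14 (4.73 ± 0.30, adjusted p = 7.65e-08 with 14 libraries and 1.21 ± 0.86, adjusted p = 0.327 with 15). Pttg1 was not called in any of the 4 in that fit, with -0.12 ± 0.21, adjusted p = 0.724 with 14 libraries and -0.06 ± 0.18, adjusted p = 0.83 with 15 for BSA 36 h. Bub3 had 0.67 ± 0.18, adjusted p = 0.0123 with 14 libraries and 0.36 ± 0.20, adjusted p = 0.212 with 15 in the same comparison.

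Markers of other cells differed from 0 h as well. The immune marker sum was 82.6 to 90.8 CPM at 0 h, above the 24.6 to 39.6 CPM of BSA 36 h and the 13.1 to 35.4 of FGF10 36 h. The endothelial sum was 38.8 to 204 CPM at 0 h against 8.21 to 35.2 and 4.12 to 13.3 at 36 h. Fibroblast markers summed to 93.5 to 623 CPM at 0 h (623 in replicate 1) against 23.1 to 39.4 and 13.2 to 25.1, and adipocyte markers to 57.8 to 526 against 1.13 to 35.1 and 0.439 to 5.25. Nearly all of the adipocyte sum at 0 h was Fabp4, at 524.7, 443.5 and 57.1 CPM. Adipoq, Plin1, Lep and Cidec were at most 0.774 CPM in any 0 h library, so that sum describes Fabp4 rather than the list. The epithelial sum was 28812 to 39501 CPM at 0 h, 18110 to 25707 at BSA 36 h and 25307 to 30999 at FGF10 36 h. In the fit of 14, 5 of 6 immune, 4 of 5 endothelial and 5 of 6 fibroblast markers fell from 0 h to FGF10 36 h (5, 5 and 6 with 15 libraries). From 0 h to BSA 36 h these counts were 5, 1 and 5 (5, 2 and 6 with 15). From 0 h to FGF10 72 h they were 5, 3 and 5 in both fits. From 0 h to BSA 72 h they were 4, 1 and 2 (4, 1 and 3 with 15), while 3 of 5 adipocyte markers rose in both fits. With 15 libraries 1 of 6 immune markers, Cd68, rose there too. Cd68 stood at 17.95, 12.3 and 10.5 CPM at 0 h and at 44.7, 51.9 and 40.1 CPM at BSA 72 h. Of all tested genes, 18.4% were called lower from 0 h to FGF10 36 h with 14 libraries and 20.5% with 15. For BSA 36 h these shares were 13% and 14.4%, for FGF10 72 h 14.7% and 16%, and for BSA 72 h 10.7% and 13%. Called higher from 0 h to BSA 72 h were 11.8% with 14 libraries and 12.2% with 15. The part of the cells with these markers in the rise of the mitosis genes was not tested.

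Between 36 h and 72 h the mitosis genes had lower fitted levels with BSA, all 46 with a negative log2 difference and a median of -0.99, a level of 0.502-fold. In 44 of the 46 every BSA 72 h library was below every BSA 36 h library, against 16.5% of all tested genes with 15 libraries and 16.1% with 14. With 15 libraries 0 fell (background 0.143%, 1 at an unadjusted p under 0.05 with a background of 16%, 1 by DESeq2's Wald test and 22 by voom with sample weights), and with 14 libraries 25 fell (background 1.86%). Aurka, which fell with 14, had -1.24 ± 0.20, adjusted p = 0.0107 with 14 libraries and -1.24 ± 0.41, adjusted p = 0.176 with 15. Cdk1, which also fell with 14, had -1.14 ± 0.23, adjusted p = 0.021 with 14 libraries and -1.13 ± 0.90, adjusted p = 0.572 with 15. Mki67 likewise had -0.997 ± 0.22, adjusted p = 0.0298 with 14 libraries and -0.995 ± 0.76, adjusted p = 0.55 with 15. Cdc25b, called in neither, had -0.01 ± 0.17, adjusted p = 0.98 with 14 libraries and -0.01 ± 0.60, adjusted p = 0.995 with 15. The count of 25 was 0 without any single BSA 72 h library, 5 when BSA 36 h replicate 1 was left out, 4 when its replicate 3 was, and 0 when the BSA 72 h libraries numbered 2_1 and 2_2 were summed as 1 sample. Between the same groups the adipocyte marker sum went from 1.13 to 35.1 CPM at 36 h to 300.5 to 318 CPM at 72 h, and its part in the fall was not tested.

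With FGF10 the median log2 difference from 36 h to 72 h was -0.36, with 44 of 46 negative. The test called 0 of 46 in either fit (0.491% of all tested genes were called lower with 15 libraries and 0.73% with 14). At an unadjusted p under 0.05 it was 1 with 15 libraries and 9 with 14, against 16.8% and 18.2% of all tested genes. DESeq2's Wald test called 1 with 15 and 1 with 14 libraries, and voom 0 and 3. In 5 genes every FGF10 72 h library was below every FGF10 36 h library, against 9.9% of all tested genes with 15 libraries and 9.79% with 14. Whether BSA and FGF10 differed in this drop is the same test as the change of effect above, which called none.

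The order of group means was alike across the list. FGF10 36 h was highest in 44 genes and FGF10 72 h in Cdc25b and Bub1b, for Bub1b at nearly equal means (36.8008 CPM at 36 h and 36.8047 at 72 h). In 43 of 46 the means ran FGF10 36 h, FGF10 72 h, BSA 36 h, BSA 72 h from high to low. The neighbours FGF10 36 h and FGF10 72 h did not differ past the test for any gene. The neighbours FGF10 72 h and BSA 36 h differ in both time and beads and were not tested against each other. Levels per kb of exon let genes be compared with each other. On this scale, at FGF10 36 h, Ube2c was highest at 151 ± 27.4 CPM per kb (mean ± SD, n = 3). Cdc20 followed at 96.3 ± 16.2 and Ccnb2 at 88.7 ± 22.2 CPM per kb, while Cdk1 stood at 51.5 ± 9.61, Mki67 at 7.72 ± 1.17 and Foxm1 at 2.90 ± 0.283 CPM per kb. The highest of the 15 libraries was FGF10 36 h replicate 1 for 25 genes, FGF10 36 h replicate 4 for 14, FGF10 72 h replicate 4 for 5 and FGF10 36 h replicate 3 for 2.

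Other cell cycle genes were read the same way. Of 97 tested genes among 98 further mitosis genes, 34 rose with FGF10 at 36 h and 69 at 72 h with 14 libraries, against 0 and 3 with 15. The shares of all tested genes called higher, 2.28% and 5.76% with 14 and 0.954% and 3.01% with 15, are the background of the counts here. Their median log2 differences were 0.74 and 1.18. Smc2, a condensin subunit, had 1.19 ± 0.19 at 36 h (adjusted p = 0.0045 with 14 libraries and 0.261 with 15). Cep55, of the abscission site, had 1.61 ± 0.16 at 72 h (adjusted p = 0.000158 with 14 libraries and 0.149 with 15). Of 50 DNA replication genes 16 rose at 36 h and 45 at 72 h with 14 libraries, against 0 and 2 with 15, with medians of 0.63 and 1.10. Rrm2, a subunit of ribonucleotide reductase, had 1.21 ± 0.22 at 36 h (adjusted p = 0.00819 with 14 libraries and 0.45 with 15). Dut, which removes dUTP, had 1.60 ± 0.18 at 72 h (adjusted p = 0.000225 with 14 libraries and 0.0275 with 15). Of 23 tested G1 cyclins and cell cycle brakes 5 rose at 36 h and 7 at 72 h with 14 libraries, 0 and 2 with 15, and none fell in either fit. Their median log2 differences were 0.06 and 0.08. E2f8, a repressor of E2F targets, had 1.77 ± 0.19 at 72 h (adjusted p = 0.000178 with 14 libraries and 0.0721 with 15). Ccnd2, a G1 cyclin, had 1.14 ± 0.22 at 72 h (adjusted p = 0.00492 with 14 libraries and 0.0553 with 15). The 2 genes of this list that rose at 72 h in both fits were Cdk4 and the brake Cdkn2b. Cdk4 had 0.61 ± 0.14 (adjusted p = 0.0134 with 14 libraries and 0.0266 with 15). Cdkn2b had 1.24 ± 0.24 (adjusted p = 0.00569 with 14 libraries and 0.034 with 15).

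**Figure D5:**
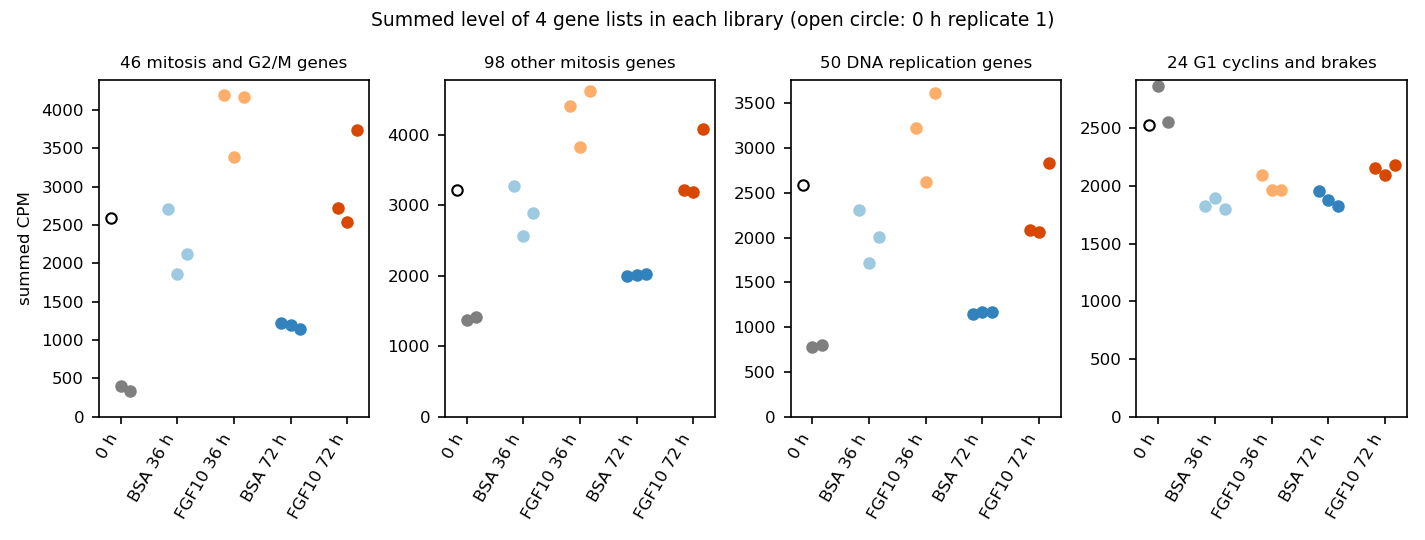
Summed CPM (vertical axes start at 0) of the 46 mitosis and G2/M genes, 98 other mitosis genes, 50 DNA replication genes and 24 G1 cyclins and brakes in each library by group, with 0 h replicate 1 as an open circle. The 46 genes sum to 1147 to 1226 CPM with BSA and 2538 to 3740 CPM with FGF10 at 72 h, and the other lists are also higher with FGF10 at 72 h. The fourth list does so over a narrow range, with 1828 to 1952 CPM with BSA and 2098 to 2184 CPM with FGF10, and is highest at 0 h.

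Markers of other cells moved with the same groups at 72 h. The summed level of 5 adipocyte markers was 300.5 to 318 CPM with BSA and 0.122 to 46.4 with FGF10. That of 6 immune markers was 61.3 to 72.9 CPM with BSA and 14.9 to 25.7 with FGF10. Most of this sum was Cd68, at 44.7, 51.9 and 40.1 CPM with BSA and 17.1, 15.5 and 9.69 with FGF10. All 6 had a negative log2 difference with 15 libraries. Endothelial markers (5) summed to 38.5 to 82.1 CPM with BSA and 2.87 to 11.4 with FGF10, and fibroblast markers (6) to 34.5 to 79.3 and 12.3 to 33.7 CPM. The sum of 8 epithelial markers was 17213 to 18940 CPM with BSA and 31084 to 36524 with FGF10. Much of that difference lay in Krt14, a basal keratin, at 3392 to 3917 CPM with BSA and 10293 to 13624 with FGF10, while Epcam was at 1479 to 1606 and 1825 to 2065 CPM. Of the 8 epithelial markers 3 rose at 72 h in both fits (background 3.01% with 15 libraries and 5.76% with 14). The median log2 difference of all 8 was 0.46. No marker of these lists was at 0 in all libraries of either 72 h group. With FGF10, however, Adipoq, Plin1, Lep, Cidec and the endothelial marker Emcn were at 0 in replicates 3 and 4. In replicate 2 they were at 2.76, 1.35, 0.193, 0.449 and 4.43 CPM, and that library also held the adipocyte sum of 46.4 CPM. At 36 h the adipocyte sum was 1.13 to 35.1 CPM with BSA and 0.439 to 5.25 with FGF10, and the immune sum 24.6 to 39.6 and 13.1 to 35.4 CPM. The part of these markers in the mitotic differences was not tested.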

How the data were processed

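RNA was measured in 15 libraries of 5 groups, made with a stranded mRNA kit per the labels' protocols. The values were raw counts of fragments per gene name, deposited by the authors as 1 table. featureCounts 2.0.1 counted fragments over exons by gene name in pairs, with no strand setting, per the file headers. Reads from overlapping or antisense genes could therefore not be told apart, and reads matching several places were not counted. The submitters' processing notes name the build GRCm39 and, as tools, HISAT2 2.2.1, cutadapt 1.9.1, FastQC, DESeq2 and HTSeq. All named rows were used.

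filterByExpr (minimum count 10, minimum total 15) left 18140 of 54456 genes with 15 libraries and 18634 with 14, each with all 46 genes. Counts were scaled with TMM. Genes were tested in edgeR 4.0.16 (R 4.3.3) with its robust quasi-likelihood F test, as 1 fit to 5 groups with 10 residual degrees of freedom (9 without 0 h replicate 1). A call is a p under 0.05 after Benjamini-Hochberg adjustment over all tested genes. Each standard error was obtained by dividing the log2 difference by the root of its F value. Script recovery of known changes was tested on simulated data. Alternatives were DESeq2 size factors, other filters, replicate blocks, a summed pair of libraries, other sets of groups, voom in limma 3.58.1 with sample weights, DESeq2 1.42.0 (Wald test), and leaving out libraries. These alternatives without 0 h replicate 1 were chosen after seeing the data, apart from the replicate block.

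The 46 genes and the other lists were chosen with earlier results of these data known. Values in all libraries are given for 15 genes chosen by role, for genes called with 15 libraries in FGF10 against BSA, and for those with the highest and lowest difference there. Other genes are given as ranges or as the 2 largest differences of a role in that comparison. Genes named because a count was small, Ccnb2 among levels per kb and the genes of the closing section were chosen after their values were seen. Of other lists only genes among the 3 smallest p are named. Libraries 2_1 and 2_2 of BSA 72 h had a chi-square averaging 4.60 per gene between them, against 10.5 and 12.9 for the other pairs of that group, and were kept separate, though the labels do not say whether they come from 1 culture. Promoters came from RefSeq on GRCm38.p6, another build than that of the counts, so no coordinates were carried between them.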

Additional observations from a re-analysis of the deposited data

How the results depend on the processing

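With 15 libraries no alternative reversed a direction, but counts of called genes moved. Shares of all tested genes are not given for the alternatives of this section, apart from FGF10 against BSA with only the groups compared. The other counts can therefore not be set against a background. For FGF10 against BSA at 36 h, 0 of 46 became 9 with voom, 23 with only the 4 later groups and 1 with only the groups compared. At 72 h, 1 became 0 without a filter or with 2_1 and 2_2 summed, 45 with voom, 2 with DESeq2, 44 with the 4 later groups and 45 with the groups compared. For BSA 36 h against 0 h, 1 became 0 without a filter or with the groups compared, 45 with voom and 2 with DESeq2. FGF10 36 h against 0 h went from 11 to 5 without a filter, 7 with the pair summed, 45 with voom, 26 with DESeq2 and 0 with the groups compared. BSA 72 h against 0 h went from 0 to 38 with voom and 1 with DESeq2. FGF10 72 h against 0 h went from 3 to 1 without a filter or with the groups compared, 46 with voom and 6 with DESeq2. BSA 72 h against BSA 36 h went from 0 to 22 with voom, 1 with DESeq2, 33 with the 4 later groups and 37 with the groups compared. FGF10 72 h against FGF10 36 h went from 0 to 1 without a filter or with DESeq2. Leaving out 1 library gave 0 to 19 for FGF10 against BSA at 36 h and 0 to 44 at 72 h. Against 0 h the range was 1 to 45 at BSA 36 h, 5 to 45 at FGF10 36 h, 0 to 43 at BSA 72 h and 1 to 45 at FGF10 72 h. Between times the range was 0 to 25 (BSA) and 0 to 1 (FGF10). The upper ends, other than the last, are those without 0 h replicate 1. DESeq2 gave a p for 34 of the 46 genes with 15 libraries.

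With 14 libraries, the 72 h comparison of FGF10 with BSA and the 4 comparisons with 0 h stayed within 1.5 times their counts under all alternatives run. The 36 h count of 19 became 42 without a filter, 44 with voom, 31 with DESeq2 and 1 with the groups compared, and 1 to 34 when 1 more library was left out. The change of effect went from 0 to 5 without a filter. BSA 72 h against BSA 36 h went from 25 to 42 without a filter, 0 with the pair summed, 44 with voom and 41 with DESeq2, and 0 to 35 with 1 more library left out. FGF10 72 h against FGF10 36 h went from 0 to 6 without a filter, 3 with voom and 1 with DESeq2, and 0 to 1 with 1 more library left out. The cause was not tested.

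The main fits did not treat the replicate numbers as pairing samples. Libraries of different groups with the same number had correlated deviations (over 0.1) in 10 of 21 pairs, with a median of 0.0661. Among pairs with different numbers it was 10 of 69, with a median of -0.0147. The highest correlation, 0.50, was between replicate 1 of BSA 36 h and replicate 1 of FGF10 36 h. These values do not settle whether equal numbers mark paired samples. With the replicate number as a block and 15 libraries, BSA 36 h against 0 h had 2 calls, FGF10 36 h against 0 h 44, FGF10 72 h against 0 h 39 and FGF10 72 h against FGF10 36 h 1. With the replicate block and 0 h replicate 1 left out, FGF10 against BSA had 24 calls at 36 h and 44 at 72 h. Against 0 h there were 45 (BSA 36 h), 45 (FGF10 36 h), 44 (BSA 72 h) and 45 (FGF10 72 h), and between times 26 with BSA and 1 with FGF10. No other count moved by over 1.5 times under the block.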

Other observations

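The 3 FGF10 36 h libraries did not rank alike across the 46 genes, a pattern noticed after the values were seen. In replicate 4, Birc5 stood at 301 CPM against 183 and 125 CPM in replicates 1 and 3, Spc25 at 135 CPM against 90.1 and 78.2, and Pttg1 at 105 CPM against 67.8 and 57.5. In the same library Ect2 stood at 20.4 CPM against 39.2 and 27.9, and Kif20a at 30.5 CPM against 53.0 and 43.6. This is the library with 1.11% mitochondrial counts, and the part of that in the ranking was not tested.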
